A study of Mus musculus with 12 samples.

Results

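The 10 genes described here encode RNA-binding proteins that set whether neurons include microexons: Srrm3, Srrm4, Nova1, Nova2, Rbfox1, Rbfox2, Rbfox3, Ptbp1, Ptbp2 and Elavl4. They form a list of names, with no threshold on measured values, and were matched by symbol to the Ensembl identifiers of the deposited tables. All 10 were found among 33560 genes with counts, and all 10 passed the filter on low counts that left 15443 genes for testing. RNA was sequenced in 12 libraries of mouse neurons, differentiated in culture out of embryonic stem cells and taken at day 21, which the sample labels call glutamatergic. The 4 groups of 3 libraries were wild type (WT) with vehicle, Daam1-MIC_KO (KO) with vehicle, WT with inhibitor and KO with inhibitor. Vehicle was water, and inhibitor was Y-27632 at 10 µM, a blocker of the kinase ROCK; each was given for 2 h. WT neurons came from 3 cell lines labelled Daam1-MIC_WT and KO neurons from 3 lines labelled Daam1-MIC_KO, and each of the 6 lines gave 1 library with vehicle and 1 with inhibitor. The labels do not say whether a line is a clone, or name the mouse strain. Hippocampus is mentioned in the text of the series, but cultured neurons in all sample labels, which were followed.

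Microexons are very short exons, most of them included in neurons and skipped elsewhere, and many add a few amino acids to proteins of synapses, vesicle traffic and the cytoskeleton. SRRM4 and its relative SRRM3 activate them through a shared C-terminal domain that acts on the 3′ splice site. RBFOX, NOVA and neuronal ELAVL proteins adjust many of the same exons, and PTBP1, abundant in dividing cells and glia, represses them until neurons switch to PTBP2. Daam1, a formin that nucleates actin filaments, holds such an exon, and its deletion defines the KO lines.

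The exons concerned are shown from GENCODE M21 transcripts (build GRCm38), to make clear how little sequence separates the isoforms these proteins choose between. Capitals mark the exon, and the lower-case bases are the 15 nt of exon sequence on each side in the same transcript. The Daam1 exon has 27 nt (chr12:71958747-71958773, plus strand), is exon 16 of 26 and is present in 2 of the 3 annotated coding transcripts that span it. It is the single internal exon of 3 to 27 nt annotated in coding transcripts of Daam1, although the deleted interval itself is not named in the labels. The exons of Cpeb4 (24 nt, chr11:31918801-31918824, plus strand), Src (18 nt, chr2:157458843-157458860, plus strand), Itsn1 (15 nt, chr16:91842628-91842642, plus strand), Kdm1a (12 nt, chr4:136563438-136563449, minus strand) and Apbb1 (6 nt, chr7:105565946-105565951, minus strand) are neuronal microexons of other genes. All 6 lengths are multiples of 3, so that inclusion keeps the reading frame. Another short exon annotated in Apbb1 (13 nt, chr7:105568619-105568631, minus strand) is not a multiple of 3 and is not shown.
Daam1: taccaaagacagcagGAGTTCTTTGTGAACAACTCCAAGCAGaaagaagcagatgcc
Cpeb4: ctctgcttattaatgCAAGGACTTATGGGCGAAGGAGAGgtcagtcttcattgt
Src: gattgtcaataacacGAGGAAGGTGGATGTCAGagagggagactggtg
Itsn1: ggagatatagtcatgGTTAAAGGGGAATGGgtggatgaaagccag
Kdm1a: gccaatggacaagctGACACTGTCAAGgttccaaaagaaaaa
Apbb1: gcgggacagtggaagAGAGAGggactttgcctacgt

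A second pair of short exons matters for the regulators themselves. PTBP1 represses a 34-nt exon of Ptbp2 (chr3:119724612-119724645, minus strand, exon 10 of 14), whose skipping shifts the frame and marks the RNA for decay, and it represses the matching exon of its own RNA (chr10:79862014-79862047, plus strand, exon 9 of 13). The exons are of equal length, and 26 of their 34 bases (76.5%) are identical by position.
Ptbp1: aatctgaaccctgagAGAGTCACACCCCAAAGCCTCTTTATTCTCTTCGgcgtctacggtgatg
Ptbp2: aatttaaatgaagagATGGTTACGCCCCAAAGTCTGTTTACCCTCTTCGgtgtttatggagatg

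The deposited tables give a total per gene, so they show how much RNA of each regulator was present and not whether any of these exons was included. The libraries held 23253566 to 35012561 counts. Values per library are in CPM, counts scaled to a common library size with TMM factors, and levels of different genes are compared in the deposited cRPKM, which is per gene length. Daam1 lay between 133 and 188 CPM in 11 libraries and at 67.9 CPM in the KO inhibitor library of line 3. A total over the gene cannot show the loss of an exon of 27 nt and so does not check the genotype labels. The KO inhibitor library of line 3 stood apart: its median correlation with the others across the tested genes was 0.854, against 0.953 to 0.986 for the other 11, and it lay at 163 on the first principal component. WT line 2 with vehicle (68.1) and WT line 3 with inhibitor (60.3) came next on that component, and the other 9 lay between -73.8 and 1.41. KO line 2 lay at the opposite end, at -73.8 with inhibitor and -71.4 with vehicle. The median correlations of the 2 WT libraries were 0.953 and 0.967, against 0.972 for KO line 2 with vehicle. The KO inhibitor library of line 3 and these 2 WT libraries, grouped by the high end of the component after seeing the data, are called the 3 libraries that stand apart. Group differences are given with these 3 libraries and, for those they move most, without them.

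Against the label, markers of several cell types were present. Of the glutamatergic list, Slc17a6, the vesicular transporter of many subcortical glutamatergic neurons, had a median of 305 CPM over the 11 libraries, while Slc17a7 (1.04 CPM), Tbr1 (1.18 CPM), Neurod6 (0.899 CPM) and Neurod2 (0.260 CPM) were near 0. Gad1 (192 CPM), Gad2 (185 CPM) and Slc32a1 (163 CPM), which make and load GABA, were present, while Dlx1 (0.628 CPM), Dlx2 (0.260 CPM) and Dlx5 (0.164 CPM) of the same list of 6 were near 0. The astrocyte gene Gfap had a median of 91.7 CPM. In bulk RNA, fewer cells of a type and less RNA per cell cannot be told apart.

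In WT vehicle libraries the regulators differed widely per gene length, with the 3 RBFOX genes, Elavl4 and Nova1 high and the SRRM genes low. Rbfox1, which binds UGCAUG elements beside neuronal exons, was highest at 84.5 ± 12.9 cRPKM (mean ± SD, n = 3, here and in the following values). Rbfox3, whose protein is the neuronal marker NeuN, followed at 66.3 ± 6.98 cRPKM, and Rbfox2, the most widely expressed of the family, was at 40.0 ± 5.68 cRPKM. Elavl4, a neuronal ELAV protein that stabilises and splices RNA, was at 50.7 ± 10.7 cRPKM, and Nova1, which binds YCAY clusters, at 50.6 ± 11.1 cRPKM. Ptbp2, the neuronal PTB protein, was at 32.6 ± 7.53 cRPKM. Nova2 (17.0 ± 1.29 cRPKM), Ptbp1 (16.3 ± 13.2 cRPKM) and Srrm3 (13.5 ± 2.99 cRPKM) formed a lower set, and Srrm4 was lowest at 4.27 ± 0.872 cRPKM. The place of Ptbp1 rested on line 2: without that library its mean was 8.74 cRPKM, below Srrm3 (15.1 cRPKM) and above Srrm4 (4.76 cRPKM). Adjacent genes in this order overlapped over the 3 libraries except at 2 steps. All Ptbp2 values (24.1 to 38.1 cRPKM) lay above all Nova2 values (15.5 to 18 cRPKM), and all Srrm3 values (10.1 to 15.7 cRPKM) lay above all Srrm4 values (3.27 to 4.89 cRPKM).

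**Figure D1:**
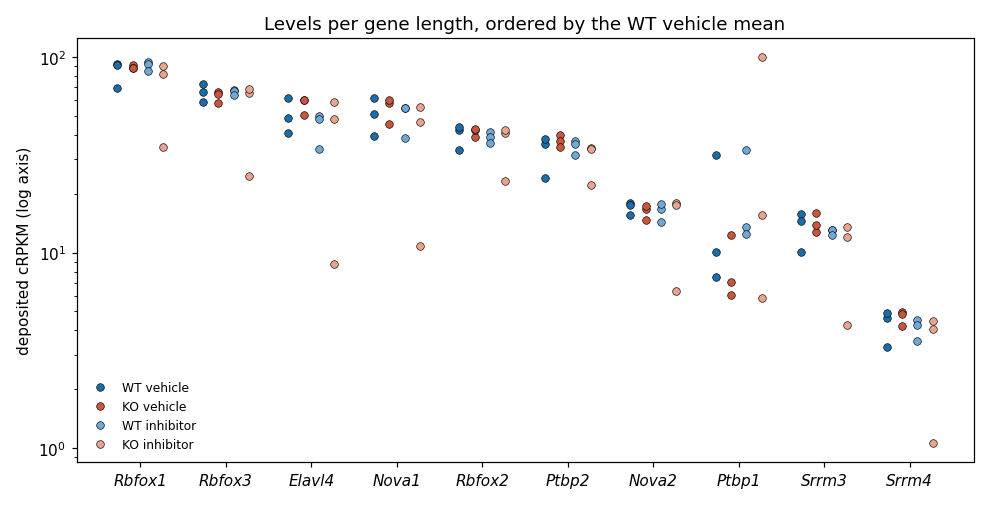
Deposited cRPKM (log axis) of the 10 regulators in the 12 libraries, 3 points per group, with genes ordered by their WT vehicle mean. Srrm4 is lowest in WT vehicle (4.27 cRPKM on average), and Ptbp1 has the widest spread, up to 99.96 cRPKM in the KO inhibitor library of line 3.

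The microexon activators Srrm3 and Srrm4 were examined first. Srrm4 (ENSMUSG00000063919, chromosome 5, 116439275 to 116591817, minus strand) was at 33.7, 25.0 and 35.7 CPM in WT vehicle (lines 1 to 3, here and below) and at 32.3, 37.3 and 36.6 CPM in KO vehicle. With inhibitor it was at 33.5, 31.9 and 26.5 CPM in WT and at 29.9, 33.6 and 7.44 CPM in KO. The groups overlapped, and the KO inhibitor library of line 3 lay 4.49-fold below the median of the other 11. On the log2 scale KO minus WT was 0.17 ± 0.42 with vehicle (± SE, edgeR adjusted p of 0.999). With inhibitor it was -0.37 ± 0.43 (edgeR adjusted p of 0.856). Without the 3 libraries that stand apart, these differences were 0.03 ± 0.10 and 0.00 ± 0.11.

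Srrm3 (ENSMUSG00000039860, chromosome 5, 135806890 to 135874772, plus strand) was at 59.7, 40.3 and 55.5 CPM in WT vehicle and at 50.9, 62.3 and 54.8 CPM in KO vehicle. With inhibitor it was at 50.6, 51.3 and 48.2 CPM in WT and at 46.5, 53.0 and 15.6 CPM in KO. As for Srrm4, the lowest library was that of KO line 3 with inhibitor and the next that of WT line 2 with vehicle. For KO minus WT the log2 values were 0.11 ± 0.36 with vehicle (edgeR adjusted p of 0.999) and -0.38 ± 0.36 with inhibitor (adjusted p of 0.856). They were -0.03 ± 0.11 and 0.01 ± 0.12 without the 3 libraries that stand apart. Per gene length Srrm3 exceeded Srrm4 in all 12 libraries, by 2.86 to 4.03 times (median of 3.05), and the ratio was highest in the KO inhibitor library of line 3.

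The repressor Ptbp1 varied most of the 10 genes. Ptbp1 (ENSMUSG00000006498, chromosome 10, 79854427 to 79864771, plus strand) was at 30.0, 99.4 and 22.4 CPM in WT vehicle and at 38.8, 21.7 and 19.0 CPM in KO vehicle. With inhibitor it was at 41.4, 38.5 and 103 CPM in WT and at 47.2, 18.1 and 288 CPM in KO. The 3 libraries that stand apart held its 3 highest values, while the other 9 lay between 18.1 and 47.2 CPM, and the groups overlapped. The inhibitor against vehicle difference in KO was 2.15 ± 0.97 on the log2 scale (edgeR unadjusted p of 0.0504 and adjusted p of 0.474), and 0.31 ± 0.44 without those 3 libraries. KO minus WT was -0.93 ± 0.94 with vehicle (edgeR adjusted p of 0.999) and 0.95 ± 0.93 with inhibitor (adjusted p of 0.856). Without those libraries the values were 0.02 ± 0.45 and -0.26 ± 0.48. Ptbp1 shares 251 of its 4740 annotated exonic bases (5.30%) with Plppr3, a neuronal gene on the opposite strand, and whether counting used the strand is not given in the sources used here. Those shared bases are 5.76% of the 4357 of Plppr3. Plppr3 was at 80.0 CPM in the KO inhibitor library of line 3 and between 222 and 283 CPM in the others. Whether Plppr3 reads entered the Ptbp1 counts, also where Ptbp1 was low, and so the ratios to Ptbp1 below, was not tested.

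Ptbp2 (ENSMUSG00000028134, chromosome 3, 119718742 to 119784466, minus strand) varied far less. It was at 130, 92.5 and 140 CPM in WT vehicle, at 153, 140 and 132 CPM in KO vehicle, at 139, 136 and 118 CPM in WT inhibitor and at 127, 127 and 77.8 CPM in KO inhibitor libraries. In KO, all inhibitor libraries lay below all vehicle libraries, the only one of the 10 genes to show no overlap in any of the 4 pairwise comparisons of groups. In that comparison 5.65% of all genes tested were lower and 3.19% higher with no overlap. In the other 3 comparisons 0 of the 10 regulators showed no overlap, beside 7.62% of all genes higher and 4.9% lower for KO against WT in vehicle, 3.51% and 7.03% for KO against WT in inhibitor, and 3.04% and 2.93% for the inhibitor in WT. The difference was -0.36 ± 0.21 (log2, edgeR adjusted p of 0.477), and -0.14 ± 0.07 without the 3 libraries that stand apart (adjusted p of 0.974).

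The 2 PTB genes were then set against each other per gene length. The Ptbp2 to Ptbp1 ratio was 3.57, 0.764 and 5.11 in WT vehicle and 3.25, 5.29 and 5.71 in KO vehicle. With inhibitor it was 2.75, 2.90 and 0.943 in WT and 2.21, 5.78 and 0.221 in KO. Ptbp2 therefore exceeded Ptbp1 in 9 libraries, and Ptbp1 exceeded Ptbp2 in the 3 that stand apart. Each of the groups WT vehicle, WT inhibitor and KO inhibitor held 1 library below a ratio of 1.

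**Figure D2:**
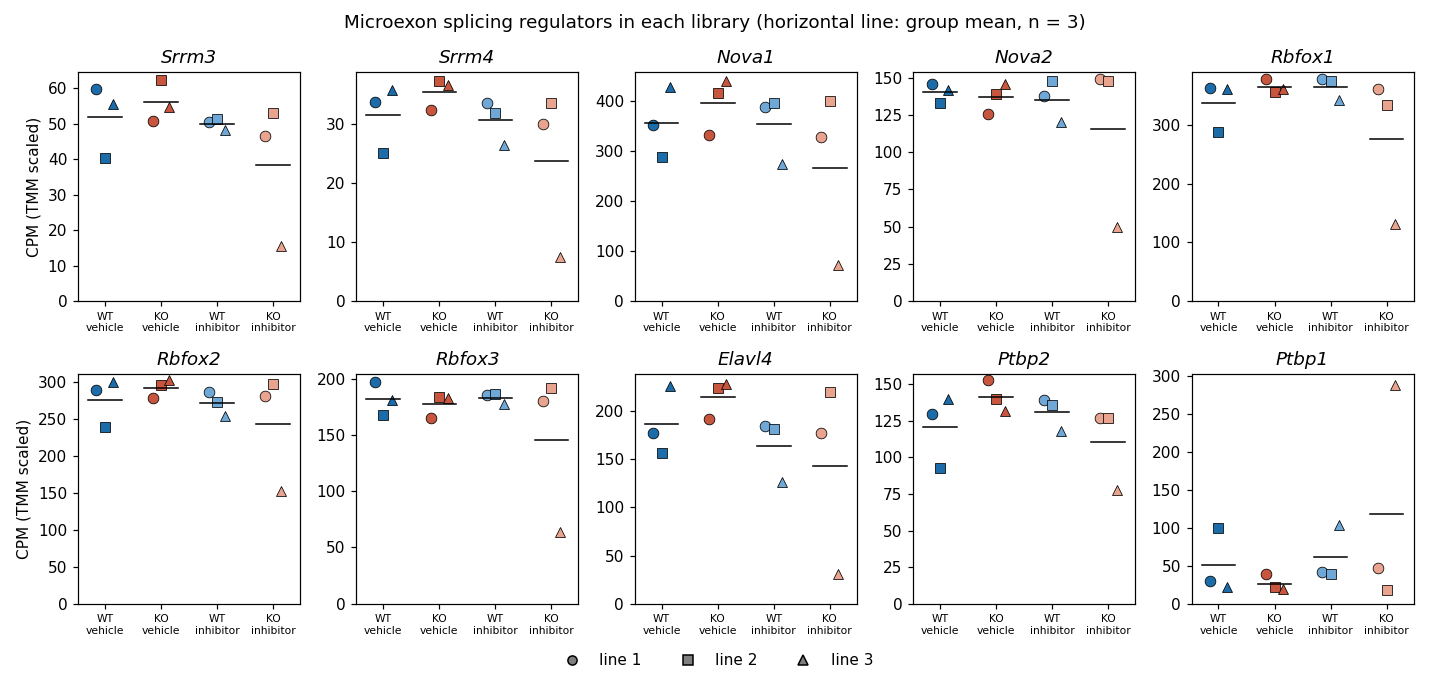
CPM (linear axes from 0) of each regulator in every library, with the line as the symbol and the group mean as a bar (n = 3). The KO inhibitor library of line 3 is the lowest for 9 genes and the highest for Ptbp1 (288 CPM).

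Nova1 and Elavl4 were, like Srrm4, Rbfox2 and Ptbp2, lowest in the 3 libraries that stand apart. Nova1 (ENSMUSG00000021047, chromosome 12, 46694517 to 46818929, minus strand) was at 353, 288 and 429 CPM in WT vehicle, at 332, 417 and 440 CPM in KO vehicle, at 389, 397 and 275 CPM in WT inhibitor and at 328, 400 and 72.7 CPM in KO inhibitor libraries. Elavl4 (ENSMUSG00000028546, chromosome 4, 110203722 to 110351909, minus strand) was at 177, 156 and 226 CPM in WT vehicle, at 192, 224 and 228 CPM in KO vehicle, at 184, 181 and 126 CPM in WT inhibitor and at 177, 220 and 30.6 CPM in KO inhibitor libraries. The other libraries of the groups overlapped for both genes. Elavl4 had the largest distance of the 9 other regulators, lying 6.01-fold below the median of the 11 in the KO inhibitor library of line 3, and Nova1 lay 5.36-fold below. Nova2 (ENSMUSG00000030411, chromosome 7, 18925888 to 18965319, plus strand), the paralogue prominent in cortex, ranged from 120 to 149 CPM in the 11 libraries and was at 49.6 CPM in that library. Its next lowest values were in WT line 3 with inhibitor (120 CPM) and KO line 1 with vehicle (126 CPM). Per gene length Nova1 exceeded Nova2 by 1.71 to 3.52 times, with the lowest ratio again there. For KO minus WT, log2 differences with vehicle were 0.15 ± 0.48 (Nova1), -0.03 ± 0.33 (Nova2) and 0.20 ± 0.53 (Elavl4), and with inhibitor -0.41 ± 0.48, -0.23 ± 0.33 and -0.20 ± 0.53. All were smaller in size than their standard errors.

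The Rbfox genes had narrow ranges outside that library. Rbfox3 (ENSMUSG00000025576, chromosome 11, 118489762 to 118911597, minus strand) ranged from 165 to 197 CPM over the 11 libraries, a span of 1.19 times, and was at 64.0 CPM in the KO inhibitor library of line 3. Rbfox1 (ENSMUSG00000008658, chromosome 16, 5885355 to 7411526, plus strand) ranged from 288 to 378 CPM and was at 131 CPM there. Rbfox2 (ENSMUSG00000033565, chromosome 15, 77078990 to 77307004, minus strand) ranged from 239 to 302 CPM and was at 152 CPM, 1.88-fold below the median. For KO minus WT, log2 differences with vehicle were 0.11 ± 0.31 (Rbfox1), 0.09 ± 0.22 (Rbfox2) and -0.04 ± 0.32 (Rbfox3), and with inhibitor -0.41 ± 0.31, -0.15 ± 0.22 and -0.33 ± 0.32. The 11 libraries of Ptbp1, by contrast, spanned 5.70 times.

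Whether the regulators differed with the deletion was tested for KO against WT. With vehicle 0 of the 10 were called at an edgeR adjusted p below 0.05, where 0% of all 15443 genes were called, and 0 of 10 had an unadjusted p below 0.05, against 1.99% of all genes. Of the 10, 7 had a positive and 3 a negative log2 difference, with a median of 0.11 beside -0.01 over all genes. In inhibitor 0 of 10 were called (0% of all genes), and 0 of 10 had an unadjusted p below 0.05 (3.5% of all genes). There 9 were negative and Ptbp1 was positive, with a median of -0.29 beside 0.00 over all genes. These signs rested on KO line 3: without its inhibitor library 6 were positive and 4 negative, with a median of 0.03. Without the 3 libraries that stand apart, the 9 regulators other than Ptbp1 lay between -0.08 and 0.09 in vehicle and between -0.07 and 0.16 in inhibitor. Sums over the vehicle and inhibitor library of every line, tested as 3 KO against 3 WT lines, again gave 0 of 10 called (0% of 16090 genes) and 0 of 10 at an unadjusted p below 0.05 (2.65% of all genes), with adjusted p-values of 0.998. The line sums gave log2 differences from -0.17 for Rbfox3 to 0.49 for Ptbp1, and without the 3 libraries from -0.22 for Ptbp1 to 0.12. DESeq2 called 11 genes in vehicle, 18 in inhibitor and 87 in line sums (0.0718%, 0.122% and 0.565% of the genes to which it gave an adjusted p), and none of the 10 was among them.

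**Figure D3:**
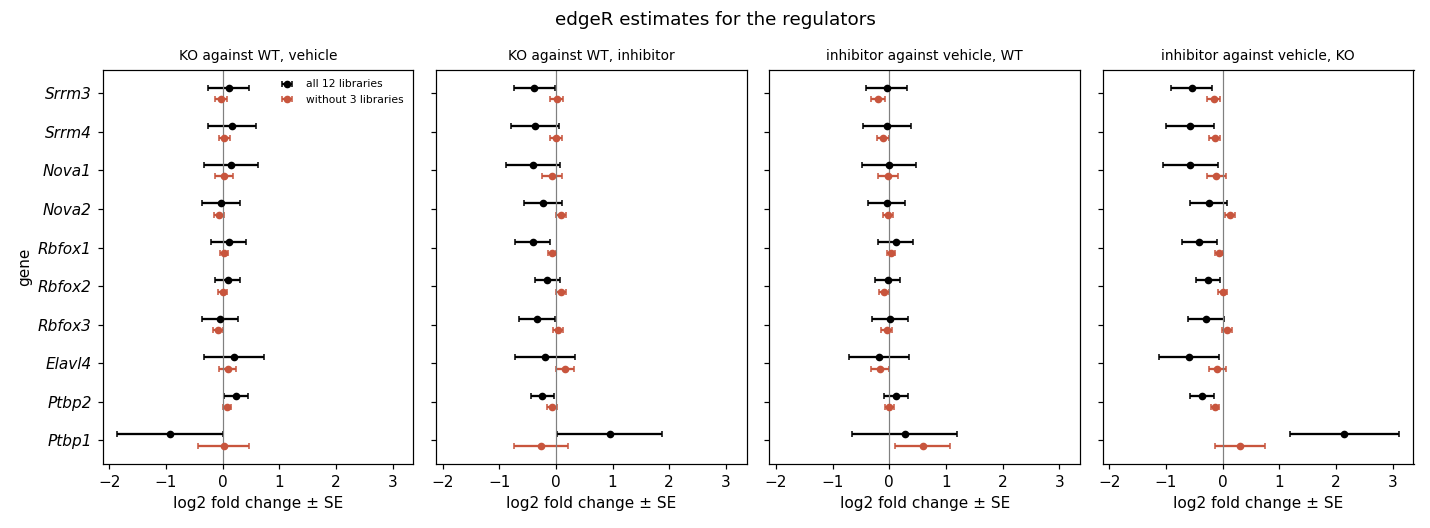
Log2 fold change with its SE for each regulator (rows) in 4 comparisons (panels), from edgeR on all 12 libraries (black) and without the 3 libraries that stand apart (red). Every SE is smaller in the second fit, and Ptbp1 for inhibitor against vehicle in KO moves from 2.15 to 0.31. The 3 libraries were chosen after seeing the data and hold the 3 highest Ptbp1 values, so smaller SEs and differences follow in part from that choice.

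Vehicle and inhibitor libraries were then compared, WT and KO apart. In WT, 0 of the 10 were called (0% of all genes) and 0 of 10 had an unadjusted p below 0.05 (0.304% of all genes), with differences from -0.19 (Elavl4) to 0.27 (Ptbp1) and a median of -0.02 beside 0.01 over all genes. In KO, 0 of 10 were called (0% of all genes) and 0 of 10 had an unadjusted p below 0.05 (7.05% of all genes), with 9 negative, Ptbp1 positive and a median of -0.38 beside -0.02 over all genes. Without the 3 libraries that stand apart the KO median was -0.08, with differences from -0.16 (Srrm3) to 0.31 (Ptbp1). The interaction, which tests whether the response differed between genotypes, called 0 of 10 (0% of all genes) and had 0 of 10 at an unadjusted p below 0.05 (1.2% of all genes). These interaction values ranged from -0.56 ± 0.68 (Nova1) to 1.88 ± 1.32 (Ptbp1), with edgeR adjusted p-values from 0.808 to 0.870. Without the 3 libraries that stand apart, Nova1 was at -0.09 ± 0.24 and Ptbp1 at -0.27 ± 0.66, and the 10 ranged from that value of Ptbp1 to 0.16 ± 0.13 (Nova2). DESeq2 called 0 genes in each of the WT response, the KO response and the interaction.

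Since vehicle and inhibitor libraries came from the same lines, the change was also followed line by line. Among the 9 regulators other than Ptbp1, all 9 were higher with inhibitor in WT line 2 (log2 changes from 0.15 to 0.55) and all 9 were lower in WT line 3 (from -0.84 to -0.03). In WT line 1 there were 4 higher and 5 lower (from -0.24 to 0.14). In KO line 1 there were 3 higher and 6 lower (from -0.27 to 0.24), and in KO line 2 also 3 higher and 6 lower (from -0.23 to 0.09). In KO line 3 all 9 were lower, from -2.90 for Elavl4 to -0.76 for Ptbp2. Ptbp1 had the opposite sign to these 9 in WT line 2 (-1.37), WT line 3 (2.20) and KO line 3 (3.93). The lines of 1 genotype thus differed in direction, and the lines with the largest changes are those that hold a library that stands apart.

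Cell type markers also differed between the libraries, in directions that varied by list. The 8 progenitor markers summed to 868 CPM in KO line 3 with inhibitor, to 290 CPM in WT line 2 with vehicle, to 328 CPM in WT line 3 with inhibitor and to 46.9 to 130 CPM in the other 9, and all 8 were higher in the first than in all 11 others. The 6 astrocyte markers summed to 1189, 337 and 258 CPM in those 3 libraries and to 58.1 to 233 CPM in the 9, and all 6 were higher in the first than in all 11 others. The 8 pan-neuronal markers summed to 1653, 5008 and 5333 CPM in the 3 libraries and to 5962 to 7069 CPM in the 9, and all 8 were lower in the first than in all 11 others. The 7 mesenchymal markers summed to 1263 CPM in WT line 2 with vehicle and 842 CPM in WT line 3 with inhibitor. In the 9 that sum was 111 to 388 CPM in WT and 28.1 to 104 CPM in KO libraries. In the KO inhibitor library of line 3 it was 576 CPM, of which Pdgfra, also a marker of oligodendrocyte precursors, made up 509 CPM, while the other 6 lay within the range of the 11 libraries. For KO against WT, the median log2 difference of the 7 was -2.90 with vehicle and -2.73 with inhibitor. In each, edgeR called 0 of the 7, as it called 0% of all genes. At an edgeR unadjusted p below 0.05, 6 of the 7 were lower in each, beside 1.99% and 3.5% of all genes in either direction. In line sums 6 of the 7 were also lower at that threshold (2.65% of all genes), with a smallest edgeR adjusted p of 0.101. Without the 3 libraries that stand apart the medians with vehicle and with inhibitor were -1.84 and -2.12. Again 0 of the 7 were called, beside 2 and 1 of 15318 genes. In each, 4 of the 7 were lower at an edgeR unadjusted p below 0.05, beside 435 and 552 of all genes lower. The 5 pluripotency markers summed to 8.94 CPM in the KO inhibitor library of line 3 and to at most 5.73 CPM elsewhere. Of these, 4 were above the other 11 libraries there, led by Dppa5a (4.49 CPM) and Zfp42 (4.07 CPM), and Pou5f1 (0.0636 CPM) was within their range. The 5 oligodendrocyte markers summed to between 12 and 19.9 CPM. In the KO inhibitor library of line 3 Olig2, a factor of oligodendrocyte precursors, was at 11.9 CPM against a median of 0.692 CPM. Sox10 was at 0.286 CPM and above the others as well, while Mbp (5.18 against 11.4 CPM) was below them and Mog was at 0. The part of these cell types in the values of the regulators was not tested.

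The distance of that library from the rest differed among the 10 regulators. Pan-neuronal markers lay 3.90-fold below the median of the 11 as a sum, and singly from 2.6-fold (Dcx) to 7.49-fold (Map2) below. Elavl4 (6.01-fold), Nova1 (5.36-fold) and Srrm4 (4.49-fold) lay further below than that sum, but within the range of the single markers. Srrm3 (3.28-fold), Nova2 (2.87-fold), Rbfox3 (2.87-fold) and Rbfox1 (2.76-fold) lay less far below, and Rbfox2 (1.88-fold) and Ptbp2 (1.70-fold) least. Ptbp1 lay 7.49-fold above. Of all 15443 genes tested, 39% were below and 38.4% were above the other 11 libraries in that library, so being outside their range was common, and 9 of the 10 regulators were below and 1 above, in CPM and in deposited cRPKM alike.

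**Figure D4:**
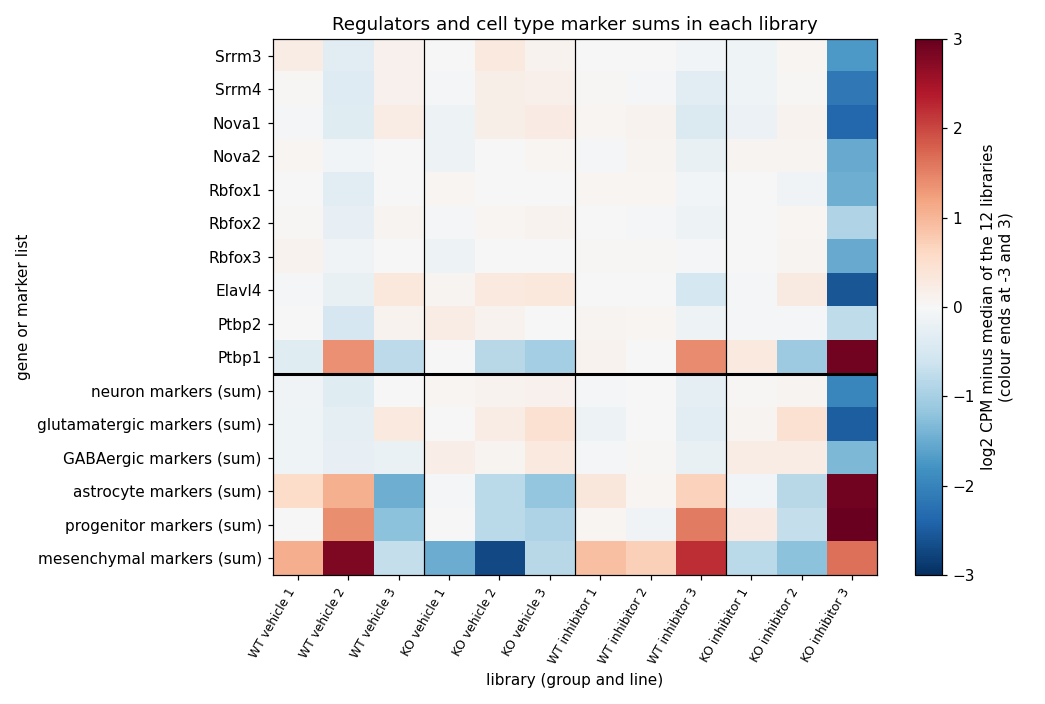
Log2 CPM minus the median of the 12 libraries (colour, from -3 to 3) for the 10 regulators and for summed cell type markers (rows) in each library (columns, by group and line). Ptbp1, astrocyte and progenitor markers are highest in the KO inhibitor library of line 3, where the 9 other regulators and neuron markers are lowest.

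Other members of the same protein families were described from lists drawn up by name. Of 6 relatives of the regulators, edgeR called 0 in any of the 6 comparisons, where it called 0% of all genes tested. Ptbp3, the PTB protein of blood and other non-neural cells, had the smallest unadjusted p of the related genes for inhibitor against vehicle in KO, at 76.8 ± 82.6 against 23 ± 7.28 CPM (mean ± SD, n = 3, log2 difference of 1.74 ± 0.70, edgeR adjusted p of 0.474), and 0.36 ± 0.27 without the 3 libraries that stand apart. As for Ptbp1, 1 library made up most of that mean: Ptbp3 was at 172 CPM in the KO inhibitor library of line 3 and between 18.6 and 61.0 CPM in the other 11. The neuronal Elavl2 and Elavl3 were at 42.6 and 175 CPM there, against medians of 196 and 580 CPM, while the ubiquitous Elavl1 was at 82.0 CPM against 72.0 CPM. The ubiquitous Srrm1 and Srrm2, splicing coactivators that lack the neuronal pattern of Srrm3 and Srrm4, were at 224 CPM (median of 176 CPM) and 468 CPM (median of 486 CPM). Of these 6, Elavl2 and Elavl3 were below the range of the other 11 libraries, Ptbp3, Elavl1 and Srrm1 above it and Srrm2 within it, beside 39% below and 38.4% above over all genes tested.

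Cofactors and 3′ splice site factors were measured in 8 of 9 listed genes, and edgeR called 0 in any comparison (0% of all genes tested). Srsf11 and Rnps1, which act with SRRM4 on microexons, were at 176 and 146 CPM in the KO inhibitor library of line 3, against medians of 124 and 141 CPM, Srsf11 above the range of the other 11 and Rnps1 within it. Raver1 and Raver2, corepressors that bind PTBP1, were at 75.3 and 29.8 CPM there, 2.52 and 4.65 times the medians of the 11. U2af1 (72.7 against 44.5 CPM), U2af2 (170 against 151 CPM) and Puf60 (140 against 109 CPM), which recognise the 3′ splice site, were above the range of the other 11 as well, and Matr3 (348 against 534 CPM) was the only gene of this list below it. That made 6 of 8 above and 1 below, beside 38.4% and 39% of all genes tested.

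Among 14 measured of 15 listed other neural splicing regulators, edgeR called 0 in any comparison (0% of all genes tested). Rest, the repressor that silences neuronal genes, Srrm4 among them, outside neurons, was at 34.9 CPM in the KO inhibitor library of line 3 against a median of 7.47 CPM, and its corepressor Rcor1 at 87.0 against 22.3 CPM. Qk, a splicing factor of glia, was at 167 against a median of 23 CPM. Of the 14, 6 were above and 8 below the range of the other 11 libraries there, beside 38.4% and 39% of all genes tested. The neuronal Celf3, Celf4, Celf5 and Celf6 lay at 0.351 to 0.422 times their medians in that library, and Celf2 at 0.698 times. Khdrbs2 and Khdrbs3, the neuronal relatives of Sam68, lay at 0.301 and 0.347 times, while Khdrbs1 was above the range (97.8 against a median of 87.5 CPM). Mbnl1 and Mbnl2, which control developmental exons, lay on opposite sides, at 36.3 CPM (median of 75.3 CPM) and 200 CPM (median of 108 CPM). Mbnl2 had the smallest unadjusted p of the related genes for KO against WT in inhibitor, 144 ± 49.6 against 99.2 ± 18.4 CPM (log2 difference of 0.53 ± 0.23, edgeR adjusted p of 0.856), and in line sums (0.41 ± 0.17, adjusted p of 0.998). They were 0.42 ± 0.10 (edgeR adjusted p of 0.341) and 0.35 ± 0.07 (adjusted p of 0.207) when the 3 libraries that stand apart were left out. Khdrbs1, which encodes Sam68, had it for the WT response (90.5 ± 2.11 against 82.6 ± 0.931 CPM, log2 difference of 0.13 ± 0.09, edgeR adjusted p of 1), and Celf3 for the interaction (-0.87 ± 0.47, edgeR adjusted p of 0.808). These were 0.12 ± 0.07 and -0.36 ± 0.28 when the 3 libraries were left out.

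**Figure D5:**
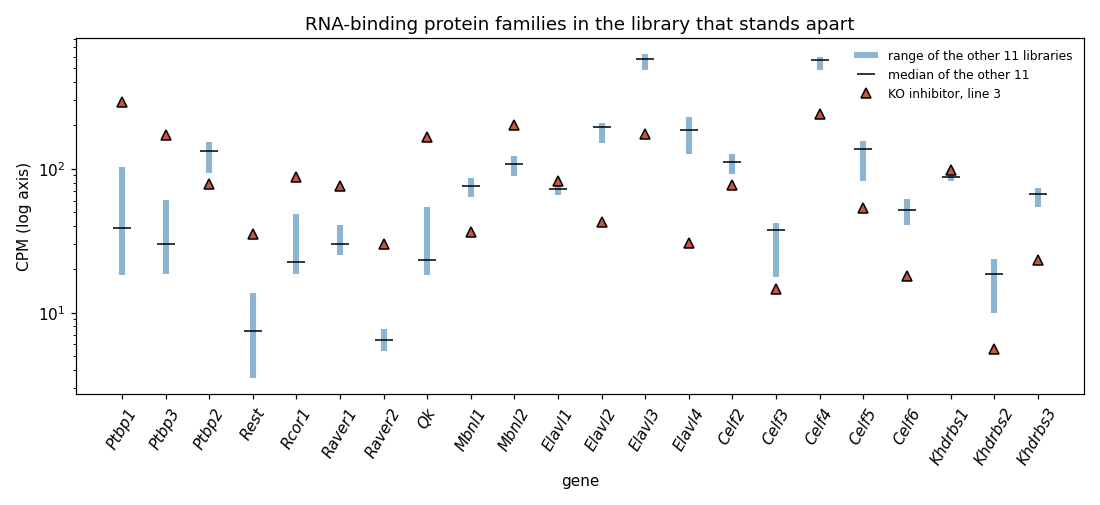
CPM (log axis) of the PTB, REST, Raver, Quaking, Muscleblind, ELAV, CELF and KHDRBS genes in the KO inhibitor library of line 3 (triangles), with the range (bars) and median (dashes) of the other 11 libraries. Ptbp1, Ptbp3, Rest and Qk lie above the range, and Elavl2, Elavl3, Elavl4 and the Celf genes below it.

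The genes that carry microexons were read for their total RNA. Of 24 listed host genes, 22 (91.7%) had an annotated internal exon of 3 to 27 nt in a coding transcript. The share was 6.16% of 20675 protein-coding genes with counts. The list was drawn up by name from genes known to carry microexons, so its high share follows from that choice. Of the 10 regulators only Srrm4 had an internal exon of that length. In KO against WT in vehicle edgeR called 0 of the 24 (0% of all genes), 15 differences were positive and 9 negative, and the median was 0.04 beside -0.01 over all genes. Mef2c, a neuronal transcription factor, had the smallest unadjusted p of the related genes there, at 19.9 ± 2.21 CPM in KO and 24.8 ± 3.04 CPM in WT (log2 difference of -0.32 ± 0.17, edgeR adjusted p of 0.999), and at -0.38 ± 0.12 without the 3 libraries that stand apart. In KO against WT in inhibitor edgeR called 0 of the 24 (0% of all genes), with a median of -0.09. For inhibitor against vehicle in KO it called 0 of the 24 (0% of all genes), with a median of -0.14. Both medians took the other sign without the 3 libraries that stand apart, at 0.06 (17 positive, 7 negative) and 0.01 (15 positive, 9 negative). In the KO inhibitor library of line 3, 14 of the 24 host genes were below and 6 above the range of the other 11, beside 39% and 38.4% of all genes tested. Ap1s2, an adaptor subunit of vesicle coats, was at 34.9 CPM against a median of 129 CPM, and Kif1b, a motor that carries synaptic vesicle precursors, was at 200 against 591 CPM. Phf21a, a subunit of the KDM1A corepressor complex, was at 47.1 against 22.2 CPM, and the kinase gene Src at 111 against 74.4 CPM.

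Finally, the genes with the most similar profiles were listed for 4 regulators. Likeness was the root mean square difference over the 12 libraries of log2 CPM (prior count of 2) centred on each gene's mean, among 13388 genes with a mean of at least 1 CPM, the 10 regulators left out. Nearest to Srrm4 were Lzts3 (0.06), Pde8b (0.07) and Slitrk1 (0.07), and nearest to Srrm3 were Sema4f (0.06), Hid1 (0.07) and Fmnl1 (0.07), in log2 units. Nearest to Rbfox3 were Golga7b (0.04), Ube2o (0.05) and Pdzd4 (0.06). Nearest to Ptbp1 were Atp6v0e (0.10), Elovl1 (0.13) and Nde1 (0.14). The profiles of Srrm4, Srrm3, Rbfox3 and Ptbp1 themselves varied by 0.60, 0.50, 0.42 and 1.14 around their means. These names rested in part on the KO inhibitor library of line 3. Over the other 11 libraries, 0 of the 3 were again among the nearest for Srrm3, 2 of 3 for Srrm4, 2 of 3 for Ptbp1 and 1 of 3 for Rbfox3. Among the regulators, Nova2 and Rbfox3 were the closest pair, at 0.07 over 12 and over 11 libraries. Over 12 libraries Srrm4 and Nova1 (0.11) and Rbfox1 and Rbfox3 (0.11) came next, and over 11 libraries Srrm3 and Srrm4, Rbfox2 and Rbfox3, and Srrm4 and Rbfox2 (0.08 each).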

How the data were processed

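Each library has a deposited table of 36902 Ensembl genes, without a header, with 2 values for each gene. The first is the authors' read count, whole numbers with no scaling. The second is the authors' cRPKM, an RPKM-type value per gene length and depth; its correction is not described in the labels. Per the labels' protocols, libraries were poly(A)-selected and stranded, and the submitters' processing notes name the build mm10. The aligner, the annotation and the use of strand in counting are not given in the sources used here. Values were NA for 3342 genes in all tables, and 33560 genes remained.

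Counts were tested with edgeR 4.0.16 in R 4.3.3 (filterByExpr by group, TMM, estimateDisp, robust glmQLFit and the quasi-likelihood F test), with all 12 libraries in 1 fit and a coefficient per group. For the genotype over both treatments, the libraries of each line were summed and 3 KO lines tested against 3 WT lines (16090 genes). P-values were adjusted by Benjamini-Hochberg over all genes tested and called below 0.05. Each standard error was taken as |log2 fold change| over the root of its F statistic. In the fit of 12 libraries, p-values measure the spread between libraries within groups, where each library is of a different line as labelled. That spread does not separate lines from single libraries. In line sums, p-values measure the spread between the summed lines. Alternatives were DESeq2 1.42.0, library totals, no filter on low counts, no robust estimation, a replicate block, leaving out each library or line, and leaving out 3 libraries together, the last chosen after seeing the data, as were the order of levels without WT vehicle line 2 and the profiles over 11 libraries.

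Vehicle and inhibitor libraries are paired by the cell line the labels name. Deviations from the group means correlated across genes at 0.411, -0.553 and -0.723 in WT lines 1 to 3 and at -0.191, 0.574 and -0.373 in KO lines 1 to 3. The 10 genes, the lists and the rules were chosen with earlier results of these data known. All 10 are named; of the 4 lists of related genes, a called gene is named or else that with the smallest unadjusted p in a comparison; and the 3 nearest profiles are named for each of 4 regulators. Other genes of the lists were named after their values were seen. Sf1 and Celf1 are not analysed here.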

Additional observations from a re-analysis of the deposited data

How the results depend on the processing

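No comparison called any of the 10 regulators under any alternative: all 1020 alternative values of the 60 combinations of regulator and comparison stayed at or above the threshold, with adjusted p-values from 0.164 upward. The sign was the other one in 84 of these values, in 40 of the 60 combinations. The cause of a changed sign was not tested. The number of genes called over all genes was 0 with all libraries in each of the 6 comparisons. DESeq2 called 11 in KO against WT in vehicle, 18 in inhibitor and 87 in line sums. Without a filter on low counts 2 were called in line sums. The fits with the cell line as a replicate block, which pair the libraries of a line, called 0 genes for both responses and the interaction and changed no sign of a regulator. The replicate number as a block called 0 genes in KO against WT in vehicle, in inhibitor and in line sums, so no block changed a call. With it, the line sums gave 0.00 for Ptbp2 and -0.02 for Elavl4. Library totals in place of TMM factors gave -0.02 for Ptbp2 and -0.01 for Elavl4 in line sums, and -0.01 for Rbfox3 in the WT response, where DESeq2 gave -0.01 and no filter -0.02.

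Without the 3 libraries that stand apart, 2, 1 and 2 genes were called in KO against WT in vehicle, in inhibitor and in line sums, and these log2 differences took the other sign. KO against WT in vehicle then gave -0.03 for Srrm3, 0.00 for Rbfox2 and 0.02 for Ptbp1. KO against WT in inhibitor then gave 0.01 for Srrm3, 0.00 for Srrm4, 0.09 for Nova2, 0.09 for Rbfox2, 0.04 for Rbfox3, -0.26 for Ptbp1 and 0.16 for Elavl4. The WT response then gave -0.05 for Rbfox3. The KO response then gave 0.13 for Nova2 and 0.08 for Rbfox3. The interaction then gave 0.04 for Srrm3, 0.16 for Nova2, 0.09 for Rbfox2, 0.12 for Rbfox3, -0.27 for Ptbp1 and 0.07 for Elavl4. The line sums then gave 0.00 for Srrm3, 0.04 for Srrm4, 0.01 for Nova2, 0.05 for Rbfox2, -0.22 for Ptbp1 and -0.01 for Ptbp2.

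When 1 library or line was left out, log2 differences of regulators whose sign changed had the following ranges. For KO against WT in vehicle the range was -0.04 to 0.23 (Srrm3), -0.08 to 0.03 (Nova2), -0.01 to 0.15 (Rbfox2), -0.09 to 0.03 (Rbfox3) and -1.31 to 0.01 (Ptbp1). For KO against WT in inhibitor the range was -0.71 to 0.05 (Srrm4), -0.82 to 0.04 (Nova1), -0.45 to 0.13 (Nova2), -0.33 to 0.10 (Rbfox2), -0.59 to 0.02 (Rbfox3), -0.90 to 1.56 (Ptbp1) and -0.66 to 0.28 (Elavl4). For the WT response the range was -0.23 to 0.06 (Srrm3), -0.21 to 0.06 (Srrm4), -0.17 to 0.14 (Nova1), -0.12 to 0.03 (Nova2), -0.02 to 0.17 (Rbfox1), -0.15 to 0.04 (Rbfox2), -0.07 to 0.07 (Rbfox3), -0.34 to 1.19 (Ptbp1) and -0.07 to 0.23 (Ptbp2). For the KO response the range was -0.47 to 0.12 (Nova2) and -0.54 to 0.07 (Rbfox3). For the interaction the range was -0.42 to 0.17 (Nova2), -0.41 to 0.01 (Rbfox2), -0.55 to 0.06 (Rbfox3) and -0.86 to 0.08 (Elavl4). For the line sums the range was -0.30 to 0.06 (Srrm3), -0.25 to 0.10 (Srrm4), -0.31 to 0.07 (Nova1), -0.24 to 0.05 (Nova2), -0.25 to 0.03 (Rbfox1), -0.11 to 0.09 (Rbfox2), -0.31 to 0.00 (Rbfox3), -0.81 to 0.95 (Ptbp1), -0.08 to 0.12 (Ptbp2) and -0.19 to 0.23 (Elavl4). Groups left with 2 libraries borrow their spread from the others. Gene totals limit what can be read: exon inclusion is not in these values. A difference of the size of the standard errors (0.21 to 0.97 on the log2 scale in the 4 pairwise comparisons) was not detectable. Much larger differences also went uncalled. For KO against WT in vehicle, log2 differences reached -8.84, and edgeR called 0 of 15443 genes. Col3a1 there was at -3.59 ± 0.83 (edgeR adjusted p of 0.999). The smallest edgeR unadjusted p there was 0.000316, and the smallest adjusted p was 0.999. The absence of calls among the regulators therefore does not exclude differences larger than their standard errors.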
